A study of Mus musculus with 18 samples.

Results

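Of the 157614 distal peaks deposited for this ATAC-seq series, 19071 lay over an exon of a protein-coding gene, and these exonic distal peaks are described here. A peak was a member when at least 100 bp of it overlapped an exon of a protein-coding gene in the GENCODE M1 annotation of mouse build mm9, whatever its signal in any condition. The 19071 peaks covered exons of 9387 genes. By the exon with the longest overlap, 10190 peaks (53.4%) were at an internal exon, 8274 (43.4%) at the last exon, 347 at a first exon and 260 at a gene with a single exon. The remaining distal peaks were in introns (69923), outside protein-coding genes (63110), or over an exon by less than 100 bp (5510).

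The libraries came from bone marrow-derived macrophages (BMDMs) of 3 Il10-/- mice on the C57BL/6J background, so every condition, controls included, lacked endogenous IL-10. Marrow was grown for 6 days with 10% L929-conditioned medium as the source of macrophage growth factor. Cells were then left untreated or given 500 nM (+)-JQ1 or 10 ng/mL IL-10 for 12 h, and LPS at 50 ng/mL or PBS was added for a further 4 h. This made 6 groups of 3 libraries: Unstimulated, JQ1, IL-10, LPS, LPS + JQ1 and LPS + IL-10. The mice were 12-week-old males per the study's methods. The labels do not name the knockout allele, and 2 exonic distal peaks lay over Il10 itself (mean normalized counts of 295 at an internal exon and 44.7 at the last exon), so counts there do not check the genotype.

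ATAC-seq cuts open chromatin with a transposase, and reads pile up where nucleosomes are displaced. Open sites away from gene starts are often enhancers, and some lie over exons, where one stretch of DNA carries both a reading frame and regulatory sites. In macrophages, lipopolysaccharide (LPS), a bacterial cell wall component, acts through Toll-like receptor 4 to open chromatin near inflammatory and interferon-induced genes. (+)-JQ1 displaces BET proteins, readers of acetylated histones, from chromatin. IL-10 is an anti-inflammatory cytokine that signals through STAT3.

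Most exonic distal peaks held coding sequence. The overlapped part was coding in 11212 peaks (58.8%), 3' UTR in 6306 (33.1%), 5' UTR in 446 and an exon of a noncoding transcript in 1107. Internal-exon peaks were coding in 94.5% of cases and last-exon peaks 3' UTR in 73.3%. Exons made up a median of 28.4% of peak length, with 18.2% at internal and 60.9% at last exons. The centre of the peak lay within the exon in 20.4% of internal-exon peaks and in 59.6% of last-exon peaks. At internal exons, most of the counted sequence therefore lay outside exons. Exons of more than 1 gene were overlapped by 470 peaks, which were given to the gene with the longest overlap.

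The sequences below show the exon at 4 such peaks, taken from mm9 on the gene's strand with the exon in capitals and 20 flanking intron bases on each side in lower case. They are the coding internal exons of the Mx1 and Rnf213 peaks, which opened after LPS, and of the Gramd4 and Ccdc152 peaks, which closed. The Mx1 window, chr16:97673549-97673726 on the minus strand, holds exon 11 of 15. The Rnf213 window, chr11:119345131-119345349 on the plus strand, holds exon 66 of 67. The Gramd4 window, chr15:85960913-85961107 on the plus strand, holds exon 14 of 19, and the Ccdc152 window, chr15:3232798-3232965 on the minus strand, holds exon 7 of 9.
Mx1: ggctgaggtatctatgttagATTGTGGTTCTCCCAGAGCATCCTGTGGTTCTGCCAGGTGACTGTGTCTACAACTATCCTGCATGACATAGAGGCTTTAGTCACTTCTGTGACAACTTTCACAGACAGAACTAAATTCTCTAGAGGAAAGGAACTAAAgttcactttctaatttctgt
Rnf213: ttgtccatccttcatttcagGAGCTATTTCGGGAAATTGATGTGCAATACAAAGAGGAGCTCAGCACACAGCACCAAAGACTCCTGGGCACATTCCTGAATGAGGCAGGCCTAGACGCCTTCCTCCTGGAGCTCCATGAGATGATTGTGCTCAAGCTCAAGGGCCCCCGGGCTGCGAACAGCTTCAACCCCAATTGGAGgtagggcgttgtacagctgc
Gramd4: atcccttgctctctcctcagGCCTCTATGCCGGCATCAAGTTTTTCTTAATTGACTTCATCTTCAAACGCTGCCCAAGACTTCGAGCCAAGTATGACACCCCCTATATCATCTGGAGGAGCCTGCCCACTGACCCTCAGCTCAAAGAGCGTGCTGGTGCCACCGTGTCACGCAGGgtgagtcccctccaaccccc
Ccdc152: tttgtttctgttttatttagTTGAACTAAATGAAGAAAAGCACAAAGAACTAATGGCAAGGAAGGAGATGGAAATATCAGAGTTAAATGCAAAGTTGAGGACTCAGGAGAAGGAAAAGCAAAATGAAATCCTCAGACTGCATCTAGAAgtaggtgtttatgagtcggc
The GC content of these windows was 42.1% for Mx1, 53.4% for Rnf213, 55.4% for Gramd4 and 36.3% for Ccdc152. On either strand, the interferon response element GAAANNGAA matched once in the Mx1 window and not in the other 3. The Mx1 match lay in the lower-case intron bases after the exon, not in the exon itself. The AP-1 site TGANTCA matched in none of the windows.

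Across the 300 bp at the centre of each peak, these motifs were counted in all distal peaks. The AP-1 letters were present in 9.83% of exonic distal peaks, 12.7% of intronic peaks and 14.6% of peaks outside genes, against 13.1% of all distal peaks. Interferon response elements were present in 8.77%, against 10.5% of all distal peaks, and the PU.1 letters GAGGAAGT in 3.70%, against 4.95%. The letters GGGNNTTCC, taken here for kappaB, were found in 4.59% (4.26% of all distal peaks), and the CTCF core AGGNGGCNC in 6.00% (4.62%). Sites that depart from these fixed letters were not counted. Exonic distal peaks called higher after LPS held the interferon response element in 11.6% and AP-1 in 11.6% of cases, and those called lower in 7.42% and 8.46%.

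The exonic distal peaks were wider than the others, with a median width of 1143 bp (interquartile range 771 to 2028 bp), compared with 889 bp in introns and 867 bp outside genes. Their median GC content was 48.4%, compared with 45.0% and 45.7%. They were nearer to an annotated start, at a median of 10.9 kb against 17.9 kb and 27.2 kb, and 385 (2.02%) reached into the window from 1000 bp before to 100 bp after one. Their signal per length had a median CPM (reads scaled to library size) per kb of 1.54, against 1.62 outside genes. Depth per peak was low, with a median mean normalized count of 37.5 (interquartile range 19.3 to 96.0), where normalized counts are reads scaled to the mean effective library size. Only 7898 peaks (41.4%) reached a mean of 50, and 19068 passed the filter on low counts and were tested.

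Libraries held 12020526 to 25908198 reads in peaks. Trimmed-mean (TMM) normalization factors were 1.24, 1.15 and 1.04 in Unstimulated replicates 1, 2 and 3, against 0.896 to 1.05 in the other 15 libraries. Unstimulated replicates 1 and 2 lay above that range and replicate 3 within it. Exonic distal peaks took 9.86, 9.25 and 8.74% of the reads in peaks in the 3 Unstimulated libraries. They took 7.47 to 9.38% in the others, so only Unstimulated replicate 1 lay above that range. A promoter peak was present for 6 of 7 macrophage markers, 0 of 4 T cell, 3 of 4 B cell, 2 of 3 neutrophil, 3 of 3 dendritic cell, 2 of 2 fibroblast and 1 of 2 erythroid markers. Spi1 was the macrophage marker without one, and the other 6 had median promoter peak counts of 127 to 672. Medians at the markers of other cell types ran from 17.9 at Cd79a and 21.0 at Gata1 to 584 at Zbtb46. Flt3 (201), Col1a1 (277), Elane (521) and Pdgfra (533) were also within the macrophage range. An open promoter is not expression, and in bulk samples fewer cells of a type and less open chromatin per cell cannot be told apart. Sequencing lane followed the replicate number for replicates 1 and 3, but replicate 2 was in lane 5 without LPS and in lane 6 with it.

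Accessibility was compared with the quasi-likelihood test of edgeR, with Benjamini-Hochberg adjustment across every peak of the series. A peak was called differentially accessible at an adjusted p under 0.05 and a log2 fold change of more than 0.5 in either direction, and every adjusted p below is of this kind. The 3 comparisons with the LPS group share its libraries, and the 3 with the Unstimulated group share theirs, so they are not independent of each other.

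LPS, compared with no stimulation, opened 2333 exonic distal peaks (12.2%) and closed 2481 (13.0%) of the 19068 tested. Among all peaks tested, 11.7% were called higher and 10.2% lower, and among the other distal peaks 11.0 and 10.7%. The opened peaks lay in 1448 genes and the closed peaks in 1824. Internal-exon peaks divided evenly (1277 higher, 12.5%, and 1259 lower, 12.4%), whereas last-exon peaks were called higher in 997 cases (12.1%) and lower in 1184 (14.3%). Intronic peaks were called higher in 9.45% and lower in 11.1%, and peaks outside genes in 12.7% and 10.3%. Which direction held more calls changed with the scaling and the tool. DESeq2 gave 2308 higher and 2059 lower, edgeR with DESeq2 size factors 2423 and 2345, loess offsets on GC content 2475 and 2165, and the distal table fitted alone 2506 and 2142. With library sizes taken as total reads, 1483 exonic distal peaks were called higher and 4510 lower, and the median log2 change over all peaks moved from -0.03 to -0.26. With lane as a covariate, 12.3% were higher and 12.6% lower. The count of closed peaks was 1461 without replicate 1 of every group and 1341 without replicate 2.

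**Figure D1:**
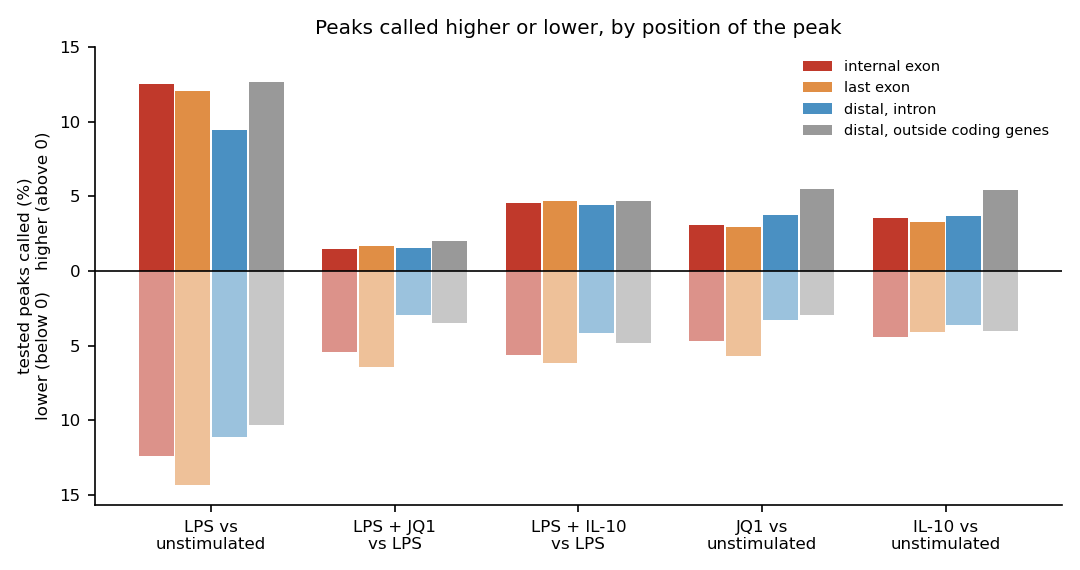
Share of tested distal peaks called in each comparison by position, on an axis of percent of peaks, with the darker bars higher and the lighter bars lower. After LPS, 12.5% of internal-exon and 12.1% of last-exon peaks were higher, and with LPS + JQ1 against LPS 5.39% and 6.40% were lower.

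Peaks named by a fixed rule of size are given first for internal exons that opened. At the peak over exon 11 of Mx1, an interferon-induced gene (chr16:97673536-97674258), the Unstimulated libraries held 23.9, 16.5 and 16.5 normalized counts. The LPS libraries held 246, 264 and 323. Every LPS library was above every Unstimulated one, and the log2 fold change was 3.88 ± 0.22 (SE, adjusted p = 6.8e-29). The exon is the one printed above, and it made up part of a peak of which 35% lay under exons. At exon 66 of Rnf213, an interferon-induced ubiquitin ligase (chr11:119344504-119345393), counts went from 37.7, 20.6 and 14.4 to 354, 310 and 252 (log2 fold change 3.69 ± 0.22, adjusted p = 4.1e-28). The groups did not overlap at this peak either.

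Other internal exons that opened belonged to Gbp5, a guanylate-binding protein of the interferon response (log2 fold change 3.71 ± 0.24), to Cmpk2, a mitochondrial nucleotide kinase (3.68 ± 0.27), and to Gm1332 (3.32 ± 0.23). The Gbp5 peak lay wholly within a 3' UTR exon. Gbp5 has close relatives in the genome, and how reads shared between such genes were treated is not given in the sources used here. Of these 5 peaks, this was the one called higher with IL-10 alone, from 17.6, 11.4 and 17.5 to 26.8, 42.0 and 35.3 normalized counts (1.17 ± 0.29, adjusted p = 0.0041).

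At last exons, the chemokine gene Ccl5 (chr11:83338122-83339546, 3' UTR of exon 3 of 3) had the largest rise among the peaks named by the fixed rule. Its counts were 28.9, 19.6 and 10.3 without stimulation and 891, 619 and 678 after LPS, a log2 fold change of 5.25 ± 0.24 (adjusted p = 7.0e-37). The last exon of Il1b, which encodes the cytokine interleukin-1 beta (chr2:129189793-129191003), went from 28.9, 19.6 and 9.26 to 585, 538 and 485 (4.83 ± 0.24, adjusted p = 4.3e-34). Neither gene's groups overlapped. Cxcl10, another chemokine, rose by 4.35 ± 0.25 on the log2 scale. Next in size came the last exons of Tmprss2, a membrane serine protease (4.22 ± 0.19, with Mx2 the nearest start at 29.7 kb), and of the mitochondrial ribosomal protein gene Mrpl39 (3.92 ± 0.30).

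Closing exons were found in genes of other kinds. At exon 14 of Gramd4 (chr15:85960826-85961900), the Unstimulated libraries held 88.0, 189 and 147 normalized counts and the LPS libraries 18.1, 12.2 and 20.2 (log2 fold change -3.08 ± 0.25, adjusted p = 3.3e-19). The LPS values were all below the lowest Unstimulated value. The last exon of the same gene, in a separate peak, fell by 2.31 ± 0.15 on the log2 scale. At exon 7 of Ccdc152 (chr15:3232292-3233828), on the strand opposite the overlapping selenoprotein P gene Sepp1, counts went from 138, 152 and 218 to 29.3, 28.1 and 37.0 (-2.44 ± 0.21, adjusted p = 5.6e-18). Only 8% of this peak was exon.

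Dnajb13, a co-chaperone gene (-2.23 ± 0.23), Tmem218 (-2.02 ± 0.21) and 6330512M04Rik (-1.90 ± 0.16) followed among internal exons. Among last exons the falls were at Zfp36l1, an mRNA decay factor (-2.71 ± 0.17), Tmem218 (-2.60 ± 0.19), Fam82b (-2.54 ± 0.18) and Ctsa, the lysosomal cathepsin A (-2.53 ± 0.21). In Zfp36l1 the counts were 509, 676 and 834 without stimulation and 113, 97.6 and 96.5 after LPS. Tmem218 was in both sets, its internal-exon and last-exon peaks lying next to each other.

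**Figure D2:**
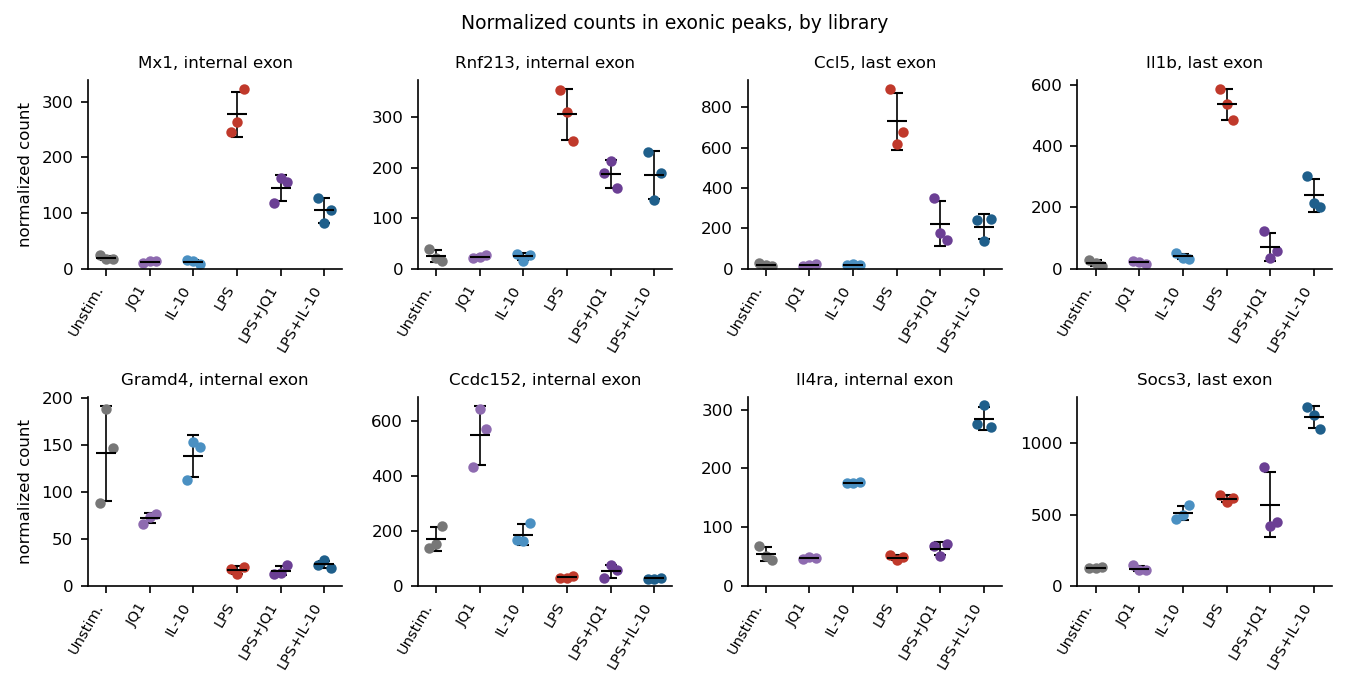
Normalized counts in each library at 8 exonic distal peaks, with a point per library and the mean ± SD of 3 libraries per group; the 5 internal-exon peaks are Mx1, Rnf213, Gramd4, Ccdc152 and Il4ra and the 3 last-exon peaks Ccl5, Il1b and Socs3. The 3 LPS libraries lie at 619 to 891 for Ccl5 and at 12.2 to 20.2 for Gramd4, apart from the Unstimulated libraries in both.

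Gene lists put these peaks in context. Of 52 interferon-induced genes listed, 45 had exonic distal peaks, and 128 of their 140 peaks were called higher and 0 lower after LPS, with a median log2 fold change of 1.70 against -0.09 over all exonic distal peaks. Inflammatory cytokines, chemokines and enzymes had 51 peaks in 25 of 39 genes, with 38 higher and 0 lower (median 1.30). The immediate regulators of NF-kappaB, AP-1 and their feedback had 91 peaks, with 50 higher and 1 lower (median 0.69). Under the 15 other fits, the interferon list had 85 to 128 peaks higher and the cytokine list 27 to 40, with 0 lower in both.

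Receptor and lineage genes were counted in the same way, where 12.2% of all exonic distal peaks were higher and 13.0% lower. Toll-like receptor signalling genes had 58 peaks, of which 9 were higher and 6 lower, or 5 and 8 when libraries were scaled by total reads. Before that rescaling, these counts were near the shares over all exonic distal peaks. The kinase gene Ikbke rose at its last exon from 280, 350 and 481 to 1147, 1077 and 968 (1.52 ± 0.14), and Tlr1, a receptor for bacterial lipopeptides, rose by 1.28 ± 0.22. At the last exon of Tlr4, the LPS receptor, counts were 180, 210 and 244 without stimulation and 137, 150 and 175 with it, a change of -0.46 ± 0.15 that was below the fold used for a call. Of 113 peaks in macrophage identity and lineage genes, 17 were higher and 30 lower. The largest falls there were over exons of the TGF-beta receptor gene Tgfbr1 (-1.99 ± 0.31 and -1.80 ± 0.35), the nuclear receptor gene Rxra (-1.93 ± 0.43) and Gpnmb (-1.84 ± 0.15).

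Lipid and cholesterol genes had 4 of 67 peaks higher, 26 lower and 37 not called (median -0.63). Of the 26 lower peaks 15 were in Abca1, the exporter of cellular cholesterol, and 9 of the 20 genes had a lower peak. Apoe, the gene of apolipoprotein E, fell at its last exon from 414, 669 and 832 to 161, 142 and 165 (-2.04 ± 0.16), with no overlap between groups. Extracellular matrix and adhesion genes had 45 of 134 peaks higher and 10 lower (24 and 19 when scaled by total reads). The higher peaks lay in 15 of 37 genes. The syndecan gene Sdc4 led at its last exon and at exon 4 (2.22 ± 0.22 and 2.01 ± 0.21). Lysosome and phagocytosis genes had 9 of 61 higher and 15 lower, BET, elongation and acetylation genes 7 of 111 higher and 15 lower, and markers of other cell types 3 of 35 higher and 3 lower, where 12.2% of all exonic distal peaks were higher and 13.0% lower. Scaled by total reads, the lysosome list had 6 higher and 21 lower, the BET list 4 and 23 and the markers of other cell types 1 and 5.

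**Figure D3:**
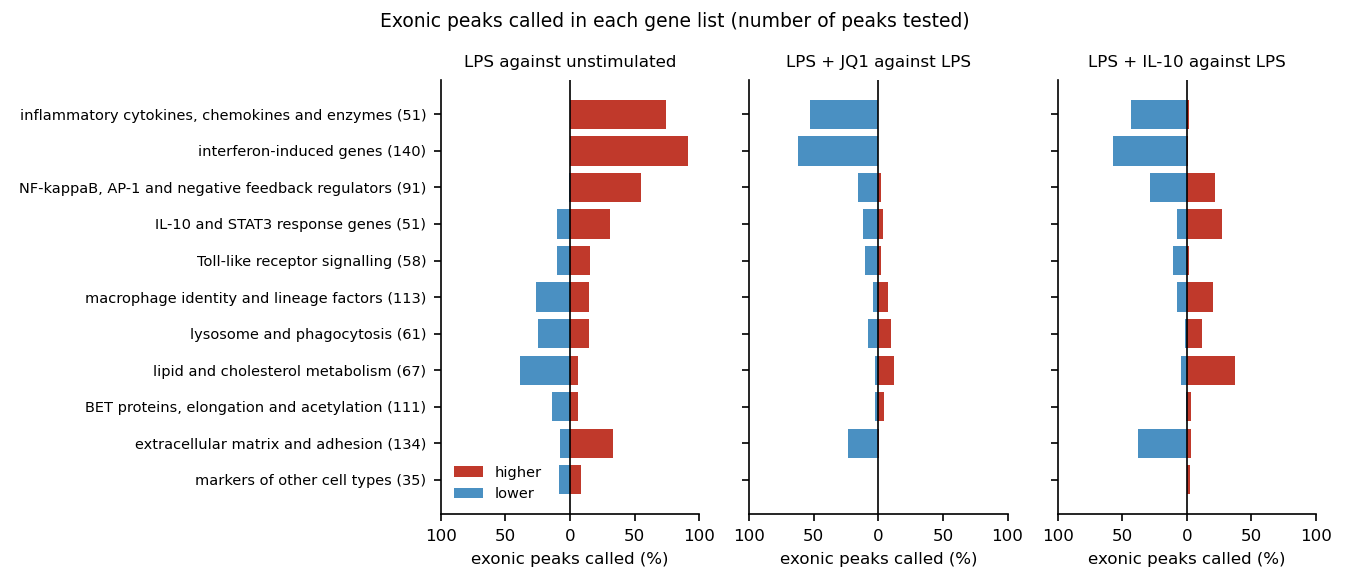
Percent of exonic distal peaks of each of 11 gene lists called higher (red, right) and lower (blue, left) in 3 comparisons. The interferon list has 128 of 140 peaks higher after LPS and 87 (JQ1) and 80 (IL-10) lower relative to LPS alone, and the lipid list 25 of 67 higher with LPS + IL-10, of which 18 are in Abca1.

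GC content and width moved with the calls. From the lowest to the highest quartile of GC content (limits 42.2, 45.6 and 49.1%), the share of exonic distal peaks called higher after LPS went from 19.1 to 16.2, 13.2 and 7.77%, and the share called lower from 7.97 to 10.5, 13.5 and 15.6%. The other distal peaks showed the same order, from 13.5 to 7.29% higher and from 7.71 to 13.3% lower. From the narrowest to the widest quartile (limits 662, 907 and 1430 bp), 3.96, 6.14, 9.43 and 20.4% of exonic distal peaks were called higher and 8.95, 11.5, 13.5 and 15.1% lower. Wider peaks held more reads, and the part of width, depth and GC content in the calls was not tested, although with loess offsets on GC content the shares over all exonic distal peaks were 13.0% higher and 11.4% lower.

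**Figure D4:**
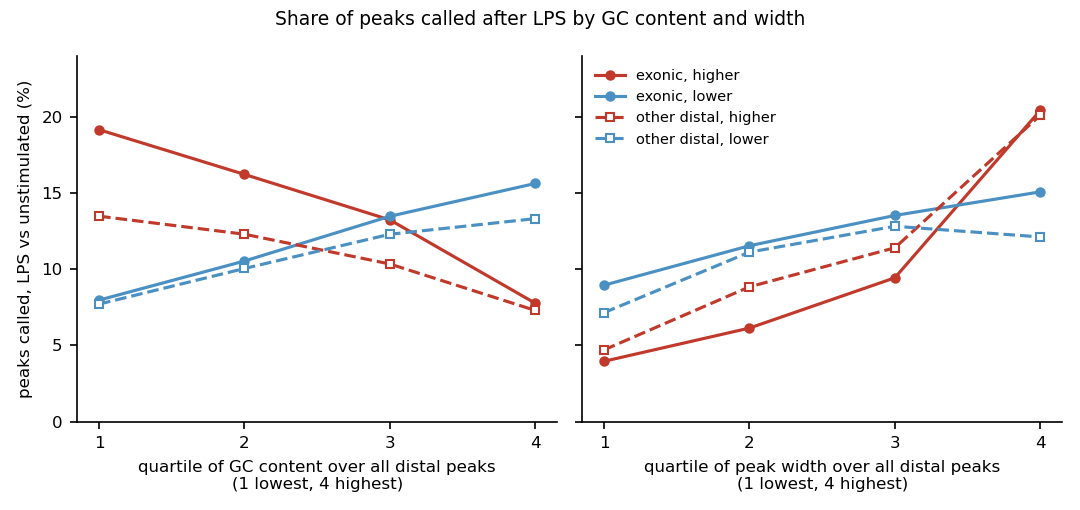
Percent of peaks called higher and lower after LPS in each quartile of GC content and of peak width, with solid lines for exonic distal peaks and dashed lines for the other distal peaks. In the highest GC quartile 7.77% of exonic distal peaks were higher and 15.6% lower, and in the widest quartile 20.4% were higher.

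The member rule set its limit at 100 bp, and the counts on either side of it are given here as a description. Of the 2002 peaks within 20 bp above the limit, 228 were higher and 221 lower after LPS, and of the 1812 within 20 bp below it, 219 were higher and 207 lower.

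LPS + JQ1 was compared with LPS to ask what BET inhibition changed in the stimulated cells. It closed 1101 exonic distal peaks (5.77%) and opened 303 (1.59%). Over all peaks tested, 3.49% were called lower and 1.74% higher, and over the other distal peaks 3.24% and 1.77%. The share called lower was 5.39% at internal exons, 6.40% at last exons, 2.97% in introns and 3.46% outside genes. Whether exonic peaks differed from the rest was not tested beyond these counts, and they were also the wider peaks. The count of closed peaks was 535 without replicate 2 of every group and 692 without replicate 3, and that of opened peaks 90 and 175.

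The gene lists held part of these closed peaks. In the cytokine list 27 of 51 were lower and 0 higher (median log2 change -0.95, against -0.04 over all exonic distal peaks), and in the interferon list 87 of 140 were lower and 0 higher (median -0.82). At the last exon of Il1b the LPS + JQ1 libraries held 121, 33.8 and 56.1 normalized counts against 585, 538 and 485 with LPS alone, a change of -3.01 ± 0.20 (adjusted p = 9.4e-24). Those 3 libraries lay between the Unstimulated and LPS values, with the first the highest. At the last exon of Traf1, a TNF receptor adaptor induced by NF-kappaB, the counts were 287, 253 and 202 with LPS against 59.1, 20.5 and 27.7 when JQ1 was added (-2.88 ± 0.24, adjusted p = 2.2e-17).

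Internal exons lower with JQ1 included Cerkl, a ceramide kinase-like gene (-2.21 ± 0.24), and exon 4 of Nlrp3, the inflammasome sensor (-2.05 ± 0.23). The Nlrp3 peak lay entirely within that exon, and its counts were 119, 141 and 144 with LPS against 43.3, 19.5 and 35.7 when JQ1 was added. The last exon of Fcgr1, the high-affinity Fc gamma receptor, rose with LPS (1.38 ± 0.14) and was lower with JQ1 (-1.73 ± 0.14), going from 1041, 1206 and 1257 to 326, 370 and 354. Tlr1 fell likewise (-1.71 ± 0.23). Not all LPS-opened exons were lower: Ltb (-0.09 ± 0.14), Nfkbiz (0.04 ± 0.13) and Sdc4 (-0.02 ± 0.18) did not pass the test.

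Among the exons opened by JQ1 in the presence of LPS, those named had closed with LPS. Dnajb13 held 24.2, 29.1 and 12.3 normalized counts with LPS against 63.4, 64.6 and 58.3 when JQ1 was added (1.47 ± 0.25). Cdh23, a cadherin, rose by 1.20 ± 0.23. The last exons of Slc43a2, an amino acid transporter (1.28 ± 0.17), and of Mylip, a ligase that directs the LDL receptor to degradation (1.25 ± 0.14), rose as well. For Mylip the groups were apart, at 180, 175 and 148 with LPS against 395, 396 and 411 when JQ1 was added.

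LPS + IL-10 was compared with LPS to ask what the missing cytokine did when it was supplied before stimulation. It opened 863 exonic distal peaks (4.53%) and closed 1102 (5.78%), where 4.26% of all peaks tested were called higher and 4.51% lower, and 4.55 and 4.49% of the other distal peaks. By position, 461 internal-exon and 388 last-exon peaks were higher and 574 (5.63%) and 511 (6.18%) lower. Without replicate 2 of every group, 495 exonic distal peaks were higher and 585 lower, and without replicate 3 the count of lower peaks was 707. The cytokine list had 22 of 51 peaks lower and 1 higher, and the interferon list 80 of 140 lower and 1 higher. The extracellular matrix and adhesion list had 51 of 134 lower and 4 higher (median -0.44 against 0.00 over all exonic distal peaks). These lower peaks lay in 12 of 25 cytokine, 30 of 45 interferon and only 8 of 37 matrix and adhesion genes. Other lists were split or went up. The NF-kappaB, AP-1 and feedback list had 20 of 91 peaks higher and 26 lower. The macrophage identity list had 23 of 113 higher and 9 lower, and the lipid list 25 of 67 higher and 3 lower.

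Peaks higher with IL-10 included members of its known response. The internal exon 5 of Il4ra, the IL-4 receptor alpha chain (chr7:132712379-132714337), held 51.8, 43.2 and 48.2 normalized counts with LPS and 276, 308 and 271 with LPS + IL-10 (2.57 ± 0.18, adjusted p = 1.9e-22). IL-10 alone also raised it, from 67.9, 50.6 and 44.3 to 175, 175 and 177 (1.71 ± 0.18, adjusted p = 9.1e-12), and no library with IL-10 overlapped one without it. The last exon of Socs3, a feedback inhibitor of cytokine signalling, held 122, 123 and 130 without stimulation, 469, 498 and 564 with IL-10, 633, 588 and 613 with LPS, and 1256, 1202 and 1102 with both. It rose by 2.03 ± 0.16 with IL-10 alone and by 0.96 ± 0.14 with IL-10 in the presence of LPS.

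Other named rises with LPS + IL-10 were at exons of Vav1, a guanine nucleotide exchange factor (2.04 ± 0.20), Pfkfb3, a regulator of glycolysis (2.15 ± 0.21), and Tgfbi, a matrix protein (2.09 ± 0.20). At the last exon of Pfkfb3 the LPS libraries held 48.3, 50.7 and 58.3 and the LPS + IL-10 libraries 284, 188 and 224. The IL-10 and STAT3 response list had 14 of 51 peaks higher and 4 lower, and 13 higher and 4 lower with IL-10 alone (median 0.23). Scaled by total reads, the list had 6 higher and 6 lower with IL-10 alone (median 0.03).

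The named falls with IL-10 were at exons that LPS had opened. The last exon of Csf1, which encodes the macrophage growth factor M-CSF, went from 40.2, 43.4 and 27.8 without stimulation to 232, 205 and 156 with LPS and 34.4, 37.0 and 30.2 with LPS + IL-10 (-2.55 ± 0.22, adjusted p = 4.4e-17). Rasgef1b, a Ras exchange factor (-2.48 ± 0.19), Cmpk2 (-2.16 ± 0.22) and the cytokine gene Il15 (-1.84 ± 0.19) followed. Irf8, a transcription factor of the interferon list, held the 1 peak of that list called higher: this last-exon peak was not called after LPS (-0.23 ± 0.15) and rose with LPS + IL-10 by 0.79 ± 0.14.

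Without LPS, JQ1 raised 598 exonic distal peaks (3.14%) and lowered 970 (5.09%), against 7.85 and 3.15% of all peaks tested and 4.51 and 3.15% of the other distal peaks. IL-10 alone raised 655 (3.44%) and lowered 807 (4.23%), against 5.16 and 3.50% of all and 4.45 and 3.8% of the other distal peaks. Both sets depended on the Unstimulated libraries, on scaling and on the tool. DESeq2 gave 675 higher and 640 lower with JQ1 and 710 and 532 with IL-10, and the distal table fitted alone gave 827 and 488 with JQ1 and 898 and 531 with IL-10, so that the direction with more calls turned. With loess offsets on peak strength, 147 were higher with JQ1 and 195 with IL-10, and without Unstimulated replicate 1 the counts were 349 higher and 465 lower with JQ1 and 354 and 216 with IL-10. Without replicate 2 of every group they were 165 and 212 with JQ1 and 139 and 104 with IL-10, and without replicate 1 the lower counts were 403 and 136, with 401 higher for IL-10.

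Peak strength moved with these calls. The exonic distal peaks with the most CPM per kb in each position class were the first exons of Strn (66.1 CPM per kb) and Epc2 (55.9), internal exons of Prdm2 (50.7) and Mnt (43.2), last exons of Clec11a (47.0) and Med29 (41.6), and the single exons of B430305J03Rik (45.8) and Gm10277 (39.0). All 8 were called higher with JQ1 alone, by 0.51 to 0.87 on the log2 scale. With loess offsets on peak strength, 0 of the 8 were called, at -0.24 to 0.26, with offsets on GC content 2 were, and with total reads as library sizes 1 was. Without replicate 2 of every group 1 of the 8 was called, and without Unstimulated replicate 1 there were 6. Among the weaker peaks named, Ccdc152 exon 7 rose from 138, 152 and 218 to 430, 641 and 568 (1.68 ± 0.16, adjusted p = 9.3e-13). The neighbouring last exon of Sepp1, the selenoprotein P gene, rose by 1.22 ± 0.22. Falls were at exon 28 of Tns3, a tensin of focal adhesions (-1.43 ± 0.26), and at the last exon of Hspbap1 (-1.75 ± 0.35), where Parp14 is the nearest start at 44.4 kb. With IL-10 alone, Oas3, an antiviral oligoadenylate synthetase, fell at an internal exon (-1.23 ± 0.23).

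Tests of the difference between the effects with and without LPS gave 226 exonic distal peaks higher (1.19%) and 327 lower (1.71%) for JQ1. The shares were 0.649 and 3.19% of all peaks tested, 0.566 and 0.983% in introns and 0.585 and 1.61% outside genes. For IL-10, 485 (2.54%) were higher and 616 (3.23%) lower. The shares there were 2.01 and 5.90% of all peaks, 2.20 and 2.67% in introns and 1.97 and 4.09% outside genes. These tests also rest on the Unstimulated libraries, and counts under other fits are not given here. At Il1b the effect of JQ1 with LPS minus that without it was -3.12 ± 0.41 on the log2 scale, and at Pfkfb3 the same difference for IL-10 was 2.56 ± 0.34.

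Many genes carried more than 1 such peak. Of the 9387 genes, 4631 had at least 2 exonic distal peaks, 629 at least 5 and 63 at least 10. After LPS, 887 genes had 2 or more called peaks, and in 410 all of these were higher, in 400 all lower and in 77 of both kinds. With LPS + JQ1 against LPS, 195 of 227 such genes had all called peaks lower, 26 all higher and 6 both. With LPS + IL-10 against LPS, 190 of 329 had all lower, 133 all higher and 6 both. Without LPS more genes were mixed. With JQ1 alone 88 of 154 had all lower, 26 all higher and 40 both. With IL-10 alone 61 of 133 had all lower, 49 all higher and 23 both.

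The genes that follow were chosen after their values were seen, as those with many exonic distal peaks moving together, and their counts are sums over those peaks. Ifih1, which encodes a cytoplasmic sensor of viral RNA, had 13 peaks, all called higher after LPS. All 13 were lower than with LPS alone when JQ1 was present, and all 13 when IL-10 was. Its summed normalized counts were 390, 320 and 267 without stimulation, 1335, 1339 and 1458 with LPS, 375, 411 and 408 with LPS + JQ1, and 738, 572 and 560 with LPS + IL-10. The LPS + JQ1 libraries were near the Unstimulated ones and the LPS + IL-10 libraries were between those and LPS. Jak2, a kinase of cytokine receptors, had 9 peaks, all higher with LPS, of which 7 were lower with JQ1 and 9 with IL-10. Its sums were 2457, 2542 and 2350 with LPS, 1404, 1088 and 1135 with LPS + JQ1, and 1415, 1089 and 1279 with LPS + IL-10.

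In Rapgef2, a Rap exchange factor, the treatments gave different counts of calls. All 18 of its peaks were higher with LPS, and 16 were lower with LPS + JQ1 but 1 with LPS + IL-10. The sums were 2341, 2523 and 2657 with LPS, 1037, 943 and 1056 with LPS + JQ1, and 2072, 1880 and 2057 with LPS + IL-10, and the difference between the treatments was not tested. Itgal, the alpha L integrin of leukocytes, was similar, with 9 of 9 higher, 7 lower with JQ1 and 0 lower with IL-10. Itgav, the alpha V integrin, had calls with both treatments. Of its 14 peaks, 2 were higher with LPS, 4 lower with LPS + JQ1 and 13 lower with LPS + IL-10, with sums of 1341, 1449 and 1257 with LPS, 1221, 758 and 791 with LPS + JQ1 and 676, 786 and 615 with LPS + IL-10. The first LPS + JQ1 library was the highest of its group and lay near the LPS values. Under the 15 other fits 0 to 9 were lower with LPS + JQ1 and 9 to 13 with LPS + IL-10, and the difference between the treatments was not tested here either.

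Notch2, a receptor of cell contact signalling, had 13 of 13 higher with LPS, with 11 lower with JQ1 and 11 with IL-10. Parp14, an ADP-ribosyltransferase of the interferon response, had 9 of 9 higher, with 8 lower in each treated group, and Nlrp3 had 6 of 6 higher and all 6 lower in both. Ddx60, an antiviral helicase, had 16 of 17 higher, with 10 lower with JQ1 and 3 with IL-10, and 7 to 16 were higher under the 15 other fits.

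Abca1 had 18 exonic distal peaks that moved the other way. With LPS 15 were lower and 0 higher, and with LPS + IL-10 against LPS all 18 were higher, compared with 3 for LPS + JQ1. The sums were 3818, 3947 and 4563 without stimulation, 2312, 2578 and 2512 with LPS, 2680, 3640 and 3444 with LPS + JQ1 and 5209, 5529 and 4833 with LPS + IL-10. Every LPS + IL-10 library was above every Unstimulated one. Inpp5d, the phosphatase SHIP of phosphoinositide signalling, had 10 of 10 lower with LPS and 6 higher with IL-10, at 905, 860 and 765 without stimulation, 379, 335 and 355 with LPS and 575, 670 and 572 with LPS + IL-10. Fnip2, a partner of folliculin, had 8 of 8 lower with LPS and 8 of 8 higher with IL-10.

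**Figure D5:**
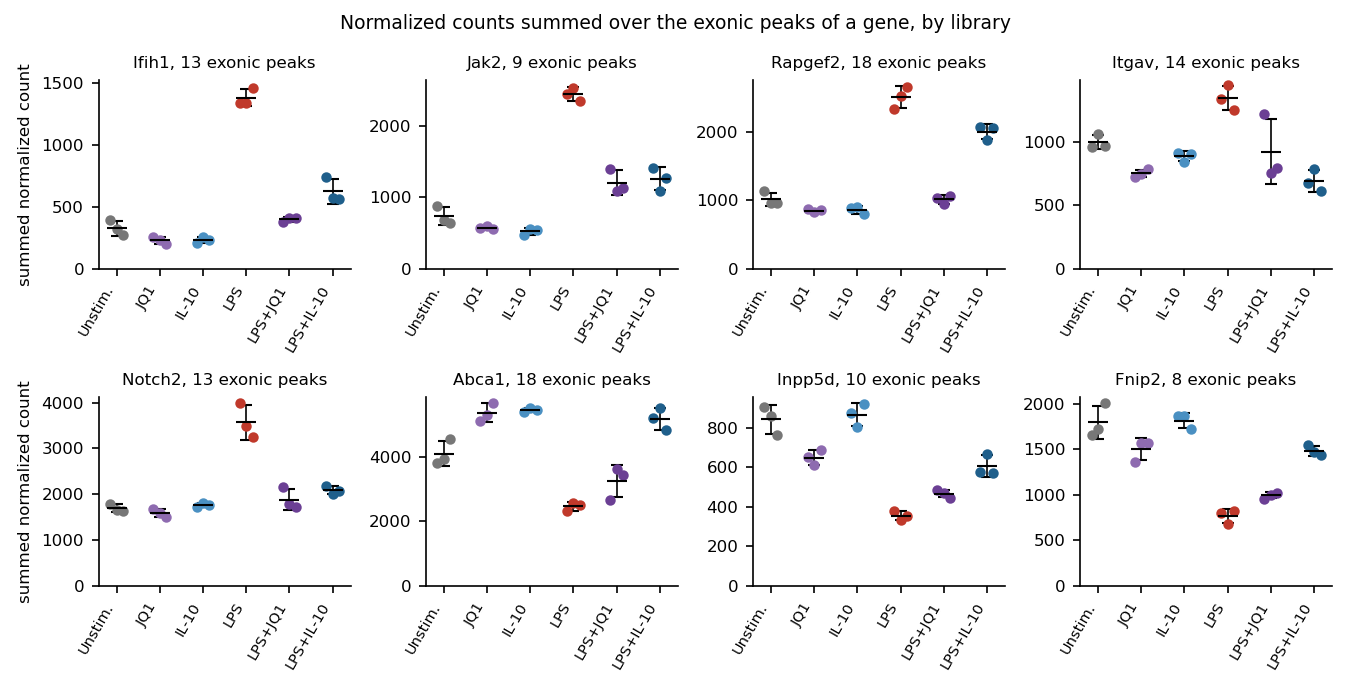
Summed normalized counts over all exonic distal peaks of 8 genes in each library, with the mean ± SD of 3 libraries per group. Ifih1 and Rapgef2 are lower with LPS + JQ1 than with LPS, Itgav is lower with LPS + IL-10, and Abca1 is at 2312 to 2578 with LPS and 4833 to 5529 with LPS + IL-10.

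Internal-exon and last-exon peaks were also compared within genes. In the 2791 genes with both, the median log2 change after LPS was -0.08 at internal and -0.14 at last exons, with the same sign in 70.9% of genes. Across these genes, which are not independent replicates and share all libraries, Spearman's rank correlation was 0.54 and Pearson's r 0.61. With LPS + JQ1 against LPS the signs agreed in 61.9% of genes and with LPS + IL-10 in 67.1%.

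Promoter peaks of the same genes were set beside the exonic ones. Of 2166 exonic distal peaks called higher after LPS whose gene had a promoter peak, 1207 (55.7%) had a promoter called higher, compared with 4396 (25.4%) of all 17330 such peaks. Of 2254 called lower, 111 (4.92%) had a promoter called lower and 257 (11.4%) one called higher, where 343 (1.98%) of all 17330 had one called lower. With LPS + JQ1 against LPS, 96 of 1026 closed exonic peaks (9.36%) had a promoter called lower, against 2.07% of all. With LPS + IL-10, 206 of 993 closed peaks (20.7%) had a lower promoter, against 4.47%, and 91 of 811 opened peaks (11.2%) a higher one, against 1.61%. Per gene, the median exonic change after LPS was set beside the strongest promoter peak. Signs agreed in 48.0% of 8308 genes, with a Spearman correlation of 0.27. With JQ1 alone, 319 of 531 raised exonic peaks (60.1%) had a higher promoter, against 60.4% of all. Of 884 lowered ones, 506 (57.2%) had a higher promoter and 14 (1.58%) a lower one, against 0.55% lower of all. These shares are descriptions, since exon and promoter were measured in the same libraries.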

How the data were processed

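The authors deposited raw read counts per peak for promoter and distal peaks of 18 ATAC-seq libraries (3 mice by 6 groups) on mm9. The submitters' processing notes name Bowtie2, MACS2 and ChIPseeker. The counting tool and any Tn5 shift are not given in the sources used here. Coordinates are as the files give them, and whether starts count from 0 or 1 is not stated. Another 6 columns matched no sample and were not used.

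Peaks were overlapped with GENCODE M1 exons on mm9 (bedtools 2.31.1). All 194284 peaks were fitted together in edgeR 4.0.16 (limma 3.58.1, R 4.3.3) with TMM scaling, filterByExpr, a group-means design over all 18 libraries and quasi-likelihood tests. Calls needed an adjusted p under 0.05 and a log2 fold change over 0.5 in size. DESeq2 1.42.0, the authors' tool, was an alternative, with others of scaling, filter, lane, member rule and replicates. Intervals are SE from the fit, with n = 3 libraries a group. On counts simulated for LPS against unstimulated, 200 of 193740 peaks were changed by 1.5 on the log2 scale. There edgeR recovered 180 (90%) with 8 false calls and DESeq2, on 194284 peaks, 165 (82.5%) with 12. Every simulated library had the same mean profile and dispersion, estimated from the 3 Unstimulated libraries, without other group differences in composition. Only peaks above a minimum expected count were changed, so these rates do not carry over to weaker peaks or to the scaling differences seen here.

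Peaks were named by rule: among calls with a mean of 50 normalized counts or more and 1 direction in all 3 pairs of equal number, the 5 largest rises and falls per exon class for LPS, 2 for each treated comparison and 1 for each treatment alone, 1 peak per gene; the 2 strongest per class; and for each of 11 gene lists up to 4 called and 2 strong peaks. Some peaks that this rule names are not reported here. Members and lists were chosen with earlier results of these data known.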

Additional observations from a re-analysis of the deposited data

Results flagged for a closer look

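Of 16 peaks named for LPS + JQ1 or LPS + IL-10, all 16 also passed a test of the difference between a treatment's effect with and without LPS (the interaction term in edgeR, adjusted by the Benjamini-Hochberg method). These peaks had been chosen for a large effect with LPS, so a difference in that direction was favoured by the choice. Each value is the effect with LPS minus the effect without it, on the log2 scale.

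For JQ1, the differences at exons that it closed were -3.12 at Il1b, -2.35 at Traf1, -1.46 at Nlrp3 and -1.23 at Cerkl. At exons that it opened they were 1.504 at Cdh23, 1.42 at Dnajb13, 1.00 at Slc43a2 and 0.98 at Mylip. Il1b was the largest, with an effect of -3.01 with LPS and 0.11 without it.

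For IL-10, the differences were -2.12 at Csf1, -1.52 at Il15, -1.50 at Rasgef1b and -1.39 at the internal exon of Cmpk2 among falls, and 2.56 at Pfkfb3, 1.69 at Vav1, 1.24 at Tgfbi and 0.87 at Il4ra among rises. Il4ra rose with IL-10 in both states, by 2.57 with LPS and 1.71 without it, and Pfkfb3 had an effect of 2.15 with LPS and -0.41 without it.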

How the results depend on the processing

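For the 102 named peaks, 1757 of 1857 values under 15 other fits kept their side of the threshold. Of the rest, 66 fell below it, 34 rose past it and no called value changed sign (0 reversed). Many of these peaks had been chosen for large, well-covered changes in the main fit to the same libraries. The choice therefore favoured such stability. Counts moved more, and the cause was not tested. At an adjusted p under 0.01, 1435 exonic distal peaks were lower with LPS, 164 higher with LPS + JQ1, 563 higher and 734 lower with LPS + IL-10, and 377 and 233 lower with JQ1 and IL-10 alone. With total reads as library sizes, 1483 were higher and 4510 lower with LPS, 121 and 3886 with JQ1 alone, and 191 and 2092 with IL-10 alone, and 1084 and 889 with LPS + IL-10. With loess offsets on peak strength, 147 were higher and 978 lower with JQ1 and 195 and 552 with IL-10. DESeq2 gave 675 and 640 with JQ1 and 710 and 532 with IL-10. The distal table alone gave 827 and 488, and 898 and 531, and GC offsets 758 and 756, and 847 and 647. A minimum of 10 counts per library gave 352 higher with JQ1 and 351 with IL-10.

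Leaving out each replicate number gave 1700 to 2266 higher and 1341 to 2113 lower with LPS, 90 to 284 and 535 to 966 with LPS + JQ1, 495 to 660 and 585 to 865 with LPS + IL-10, 165 to 873 and 212 to 900 with JQ1, and 139 to 954 and 104 to 718 with IL-10; replicate 2 gave the lowest of each. Without Unstimulated replicate 1, chosen after seeing the data, LPS gave 2160 and 1826, LPS + JQ1 324 and 1163, LPS + IL-10 902 and 1157, JQ1 349 and 465 and IL-10 354 and 216. With the replicate number as a block, LPS gave 2339 and 2469, LPS + JQ1 300 and 1100, LPS + IL-10 862 and 1100, JQ1 609 and 975 and IL-10 671 and 798, and no count moved by over 1.5 times. The labels describe conditions matched across 3 mice but do not tie a replicate number to a mouse. After group means were taken out, libraries of equal number correlated at a mean r of 0.0057 (-0.0819 to 0.0644), against -0.0029 for other numbers, and 9 of 18 libraries correlated best with their own number.

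An overlap of 200 bp left 1403 higher and 1576 lower with LPS, 191 and 717 with LPS + JQ1, 519 and 690 with LPS + IL-10, 355 and 623 with JQ1 and 397 and 472 with IL-10, by its construction with fewer members. Internal and last exons made up 25.8 and 69.4% of members at 200 bp, 60.5 and 36.7% at 50 bp, and 50.9 and 36.4% where all overlapped exons had to agree. Most peaks (all but 41.4%) had a mean under 50 normalized counts.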

Other observations

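Exonic distal peaks were also counted in gene families after LPS, where 12.2% of all exonic distal peaks were higher and 13.0% lower. Zinc finger genes named Zfp had 271 peaks in 147 genes, of which 18 were higher and 51 lower, with a median log2 change of -0.31 against -0.09 over all exonic distal peaks. Without Unstimulated replicate 1 the count of lower Zfp peaks was 29, and it ran from 21 to 91 over the 15 other fits. Kinesin and myosin genes had 12 of 149 higher and 25 lower, and 3 and 47 when scaled by total reads. Hox genes had 23 exonic distal peaks, with 0 higher and 0 lower, and 2 higher without Unstimulated replicate 1. The 13 peaks over histone genes were called higher in 2 cases and lower in 1. With LPS + JQ1 against LPS they were higher in 4 cases and lower in 1, where 1.59% of all exonic distal peaks were higher and 5.77% lower. These families were chosen by symbol, and no test of a family was made.

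Some exons of genes that mark other cell types carried strong peaks as well. The last exon of Cd3d, a T cell receptor subunit, had 10.4 CPM per kb, and the last exon of the cytokine receptor gene Flt3 12.5. At Cd3d the Unstimulated libraries held 260, 278 and 316 normalized counts and the JQ1 libraries 431, 516 and 464 (0.72 ± 0.14, adjusted p = 2.9e-05 in edgeR's quasi-likelihood test). Calls in this list depended on scaling: of its 35 peaks, 3 were higher and 2 lower with JQ1 alone. Scaled by total reads, 0 were higher and 3 lower, and without Unstimulated replicate 1 the counts were 1 and 0. No promoter peak was found for any of the 4 T cell markers checked.

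The last 3 genes were chosen after their values were seen. Tns3 held 11 exonic distal peaks, of which 8 were lower with JQ1 alone and 0 higher (4 to 11 lower under the 15 other fits). Ubr4, a large ubiquitin ligase, had 22, of which 13 were higher with LPS and 9 lower with LPS + JQ1 against LPS. Wdfy3, a selective autophagy adaptor, had 23, of which 9 were lower with LPS (3 to 13 under the 15 other fits) and 5 higher with LPS + IL-10 against LPS.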
